A study of Mus musculus with 8 samples.

Results

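Receptor activity-modifying proteins (RAMPs) and the calcitonin-family receptors were followed as a set of 6 genes, Ramp1, Ramp2, Ramp3, Calcrl, Calcr and Adm, among the 53647 genes of a count table from mouse leukemia macrophages. The set was selected on the counts of Ramp3, which had 0 in every Mac library and over 100 in every E-Mac library, and the other 5 genes were listed beside it as its relatives and partners. Of the 6 genes, 5 had at least 1 count and 3 (Ramp1, Ramp3 and Calcrl) passed the filter on low counts, as did 13412 genes in all. E-Mac, for MSC-educated macrophages, are leukemia macrophages sorted after 12 h of co-culture with mesenchymal stromal cells (MSC, the fibroblast-like support cells of bone marrow), and Mac are the same kind of cells sorted after 12 h of culture alone. Both groups are of the C57BL/6 strain, and each has 4 polyA RNA libraries. The leukemia model, the markers used in the sort and the number of animals or cultures behind the libraries are not stated in the labels, so a p-value speaks only for the spread among these 8 libraries, which may be technical.

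A RAMP is a small single-pass membrane protein that travels to the cell surface with a receptor of the calcitonin family and sets which peptide that receptor answers to. Calcrl, the calcitonin receptor-like receptor, binds calcitonin gene-related peptide (CGRP) when paired with Ramp1 and adrenomedullin, the peptide encoded by Adm, when paired with Ramp2 or Ramp3. Calcr, the calcitonin receptor, binds calcitonin alone and amylin together with a RAMP, and is a classical receptor of osteoclasts. These receptors couple mainly to the G protein Gs and raise cyclic AMP, and CGRP released by sensory nerves is known to dampen inflammatory cytokine production by macrophages.

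E-Mac and Mac held different RAMP transcripts, while the difference in the receptor gene Calcrl did not pass the test. Ramp3 stood at 10.6 ± 2.03 CPM in E-Mac and at 0 counts in Mac. Ramp1 fell to 12.2 ± 2.90 CPM in E-Mac, against 49.2 ± 4.98 CPM in Mac. Calcrl had 18.4 ± 1.55 CPM in E-Mac and 19.6 ± 2.43 CPM in Mac. Ramp2, Adm and Calcr were at or near 0 in both groups. CPM stands for counts per 1000000, where each library's sum over tested genes was first multiplied by its TMM factor, and values are mean ± SD over 4 libraries.

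The sequences before the transcription start are shown for the 3 genes with a measurable level, since they are the members whose transcripts can be followed here. They are the 250 bases before the RefSeq start on GRCm38.p6, the build also called mm10, written 5′ to 3′ on the strand of the gene. The GENCODE M21 annotation used below for gene positions places 2 of these starts elsewhere. Its Calcrl gene reaches 84425411, so much of the Calcrl window, with its GC box, lies inside that gene. Its Ramp3 gene begins at 6658521, so the last bases of the Ramp3 window lie inside that gene. Capitals mark the GC box GGGCGG on either strand, the core of a site for Sp-family transcription factors.
Ramp3, chr11:6658283-6658532, + strand: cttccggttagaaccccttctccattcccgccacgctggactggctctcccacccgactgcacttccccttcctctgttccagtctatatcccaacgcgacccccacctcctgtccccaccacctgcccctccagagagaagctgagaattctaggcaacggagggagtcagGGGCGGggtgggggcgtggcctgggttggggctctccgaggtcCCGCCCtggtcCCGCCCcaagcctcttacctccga
Ramp1, chr1:91179572-91179821, + strand: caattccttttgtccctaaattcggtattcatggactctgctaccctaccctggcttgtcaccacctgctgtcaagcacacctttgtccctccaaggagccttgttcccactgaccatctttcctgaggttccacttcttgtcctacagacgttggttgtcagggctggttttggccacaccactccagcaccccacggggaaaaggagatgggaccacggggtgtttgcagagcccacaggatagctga
Calcrl, chr2:84425267-84425516, - strand: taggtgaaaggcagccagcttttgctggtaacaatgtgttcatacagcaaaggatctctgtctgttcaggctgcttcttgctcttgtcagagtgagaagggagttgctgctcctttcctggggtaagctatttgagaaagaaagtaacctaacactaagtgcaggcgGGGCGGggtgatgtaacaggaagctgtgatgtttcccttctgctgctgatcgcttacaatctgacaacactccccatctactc
The Ramp3 window held 3 GC boxes, the Calcrl window 1 and the Ramp1 window 0, and 32.7% of all 32851 RefSeq windows of this length held at least 1. The GC content was 65.2% for Ramp3, 54.0% for Ramp1 and 48.4% for Calcrl, against a median of 52.4% over all windows. The Ramp3 window had 13 CpG dinucleotides, above the count in 68.5% of windows, and Ramp1 and Calcrl had 4 and 3. None of the 3 windows held the cyclic AMP response element TGACGTCA (in 1.55% of all windows) or its shorter core TGACG (17.8%), searched on both strands, where the core is part of the full element. The letters GCGTG, a core of hypoxia response elements, stood in the Ramp3 window 2 times, in neither of the other windows, and in 28.2% of all windows. The motifs TATAAA (12.4% of all windows), ACGTG (16.6%) and TTCNNNGAA (7.02%) were in none of the 3. These are matches of letters and no binding was measured.

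Ramp3 lies on chromosome 11 of mm10, 6658521 to 6677475, on the + strand, and is annotated in GENCODE M21 as a protein-coding gene whose longest coding transcript has 3 exons. It had 116, 185, 129 and 166 counts in E-Mac 1 to 4 and 0 counts in each of Mac 1 to 4. In E-Mac these were 9.04, 12.7, 8.69 and 11.9 CPM. The groups did not overlap, E-Mac 2 and 4 were the higher pair, and the highest E-Mac library had less than 1.5 times the level of the lowest. With Mac set to a floor of 3 counts, taken over its 4 libraries together, the level was at least 214.5-fold higher in E-Mac. These values chose the set and are given as a description, with no test. A total of 104 genes had 0 counts in all 4 Mac libraries and at least 1 count in all 4 E-Mac libraries, and Ramp3 had the highest mean CPM of them. Only Ramp3 and Flrt3, a membrane protein of cell adhesion, had 100 counts or more in every E-Mac library among those 104 genes.

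Ramp1 spans chromosome 1, 91179822 to 91225196, also with 3 exons in its longest coding transcript. Its counts were 118, 170, 240 and 163 in E-Mac 1 to 4 and 681, 618, 798 and 874 in Mac 1 to 4. On the CPM scale these were 9.20, 11.7, 16.2 and 11.7 in E-Mac and 42.3, 51.5, 49.0 and 53.9 in Mac. Every E-Mac value was under every Mac value, and the spread inside each group was small beside the gap. The log2 fold change, E-Mac over Mac, was -2.01 ± 0.15 (standard error, n = 4 and 4), with an adjusted p of 8.69e-08 in edgeR's quasi-likelihood test with Benjamini-Hochberg adjustment over all 13412 genes. Its 95% interval was -2.32 to -1.69. Of all tested genes, 58.3% passed the same threshold (adjusted p under 0.05), and 28.8% of all tested genes passed as lower in E-Mac, so a call by itself does not set Ramp1 apart. Groups without overlap were found for 53.9% of the tested genes. Scaled by total counts only, 2996 genes were higher and 5018 lower, against 3954 and 3860 with TMM factors. Among the tested genes 402 had a lower log2 fold change than Ramp1.

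Calcrl, on the - strand of chromosome 2 from 84330626 to 84425411, encodes the receptor that both RAMPs serve. Its counts were 257, 263, 283 and 228 in E-Mac 1 to 4 and 339, 265, 272 and 300 in Mac 1 to 4. On the CPM scale these were 20.03, 18.1, 19.1 and 16.4 in E-Mac and 21.1, 22.1, 16.7 and 18.5 in Mac. The groups overlapped over most of their ranges. The log2 fold change was -0.09 ± 0.11 (standard error), with an adjusted p of 0.532 in the same edgeR fit, and its 95% interval covered folds of 0.793 to 1.12, E-Mac over Mac. When E-Mac 2 and 4 were left out it turned to 0.01 (adjusted p = 0.957), and the adjusted p lay between 0.0952 and 1 under the alternatives.

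**Figure D1:**
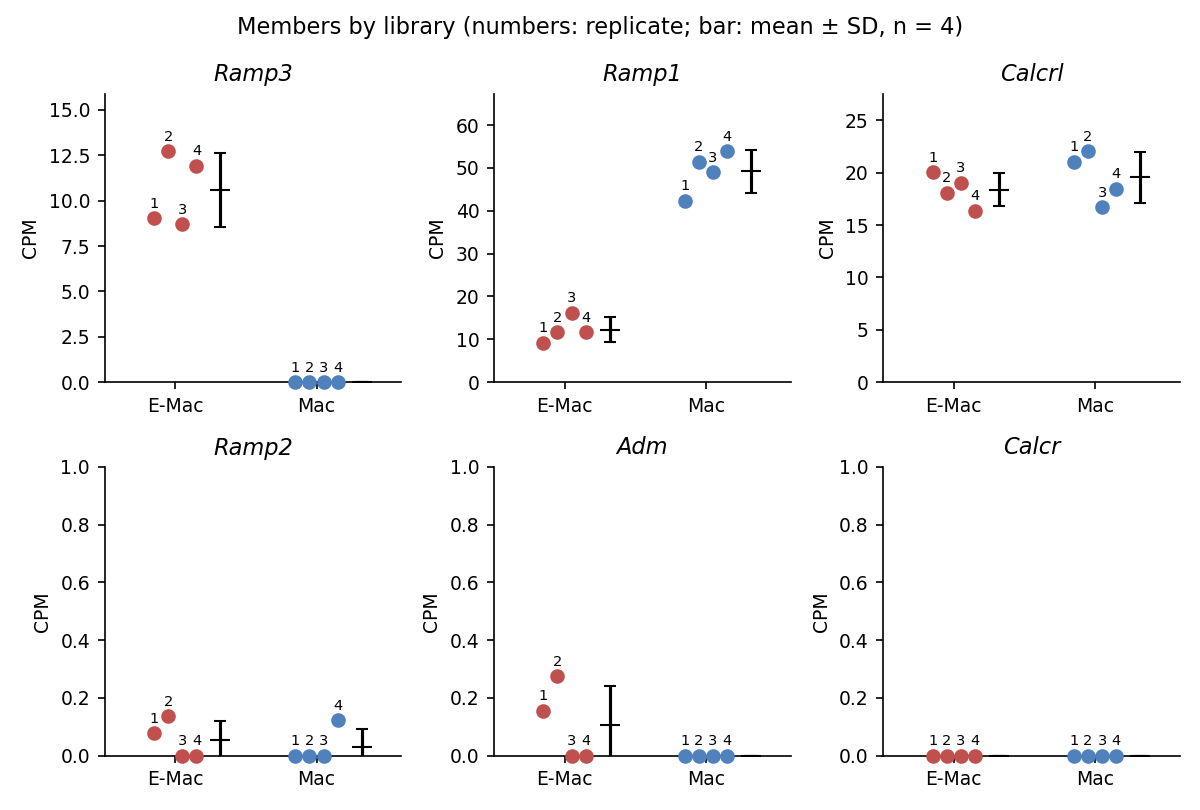
CPM of the 6 genes in each library, E-Mac left of Mac, with the replicate number above each point and the mean ± SD of 4 libraries as a bar beside the points. The 4 E-Mac libraries lie between 8.69 and 12.7 CPM for Ramp3 while the 4 Mac libraries are at 0, the order is reversed for Ramp1 at a higher level, Calcrl overlaps between the groups, and the lower row, on axes that end at 1 CPM, holds the genes at or near 0.

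The ratio of Ramp1 to Calcrl within a library does not depend on how libraries were scaled to each other, and was computed after these values had been seen. There were 0.459, 0.646, 0.848 and 0.715 Ramp1 counts for each Calcrl count in E-Mac 1 to 4, against 2.01, 2.33, 2.93 and 2.91 in Mac 1 to 4. Every E-Mac library was below every Mac library. The mean ratio was 0.667 ± 0.16 in E-Mac and 2.55 ± 0.45 in Mac (SD, n = 4 each), a log2 difference of -1.95. An exact two-sided permutation test of the log2 ratio gave p = 0.0286, the smallest that 4 against 4 libraries allow. The ratio rests on the same counts as the Ramp1 and Calcrl results above, so this p is not separate support for them.

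Ramp2, the partner of Calcrl in the main adrenomedullin receptor of blood and lymphatic endothelium, had 1, 2, 0 and 0 counts in E-Mac 1 to 4 and 0, 0, 0 and 2 counts in Mac 1 to 4. Its mean of 0.0539 CPM in E-Mac and 0.0308 CPM in Mac could not be told apart at this depth (exact two-sided permutation test, p = 0.714, n = 4 and 4). Its annotated exons, on chromosome 11 between 101246028 and 101259546, share 1103 of 3301 bases with exons of the neighbouring gene Vps25 on the same strand, which include 67.2% of the exon bases of Vps25. Vps25, a subunit of the endosomal sorting machinery, itself had 17 counts in E-Mac and 32 in Mac. How reads in overlapping exons were counted is not given in the labels, so the level of Ramp2 is uncertain.

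The remaining members were a peptide precursor and a receptor. Adm, on chromosome 7 from 110627661 to 110629820, had 2, 4, 0 and 0 counts in E-Mac 1 to 4 and 0 counts in every Mac library. Only E-Mac 1 and 2 held a read, and the exact two-sided permutation test did not pass (p = 0.429, n = 4 and 4). A count of 0 over the 4 Mac libraries allows up to 0.0495 CPM. Calcr, on chromosome 6 from 3685680 to 3764714, had 0 counts in all 8 libraries, which allows up to 0.0257 CPM over all libraries, for counting error only.

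Levels of different genes can be compared only per length, and were expressed as RPKM, here CPM per 1000 bases of annotated exon. In E-Mac, Ramp3 had 6.55, 9.22, 6.30 and 8.65 RPKM in libraries 1 to 4, and Ramp1 had 3.04, 3.87, 5.35 and 3.88 RPKM. In Mac, Ramp1 had 14.0, 17.0, 16.2 and 17.8 RPKM. Within E-Mac the order of mean levels was Ramp3 (7.68 ± 1.47 RPKM), Ramp1 (4.03 ± 0.96), Calcrl (3.77 ± 0.32), Adm (0.0666 ± 0.0825), Ramp2 (0.0163 ± 0.0202) and Calcr at 0 counts. Ramp3 lay above Ramp1 in every E-Mac library. Ramp1 and Calcrl overlapped there and do not differ beyond their spread, nor do Adm and Ramp2. Within Mac the order was Ramp1 (16.3 ± 1.65 RPKM), Calcrl (4.01 ± 0.50) and Ramp2 (0.00934 ± 0.0187), with Ramp3, Adm and Calcr at 0 counts, and the ranges of Ramp1 and Calcrl did not overlap.

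Of the summed RPKM of the 3 RAMP genes, Ramp3 made up 65.3 ± 7.55% in E-Mac, from 54.1 to 70.2% across the 4 libraries, and 0% in Mac. E-Mac 3, the library with the most Ramp1, had the lowest share. The summed RAMP level was 11.7 ± 1.52 RPKM in E-Mac and 16.3 ± 1.67 RPKM in Mac, with ranges of 9.62 to 13.1 and 14.0 to 17.9 that did not overlap. Per RPKM of Calcrl there were 3.15 ± 0.625 RPKM of RAMP transcripts in E-Mac and 4.12 ± 0.736 in Mac, and these ranges overlapped (2.34 to 3.73 and 3.25 to 4.74). These sums contain Ramp3, which chose the set, and Ramp2, whose level is uncertain, and were not tested. With the length of the longest coding transcript in place of all exons, an alternative chosen after seeing the data, the Ramp3 share in E-Mac was 61.8%.

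**Figure D2:**
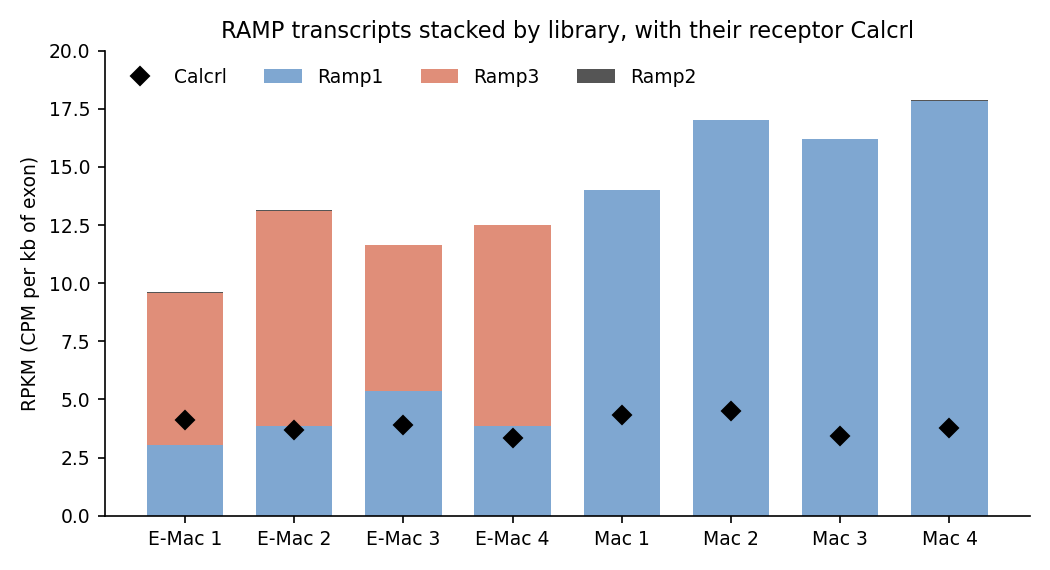
RPKM of Ramp1, Ramp3 and Ramp2 stacked for each library, E-Mac left of Mac, with Calcrl of the same library as a diamond. In Mac the bars are Ramp1 with no Ramp3, in E-Mac Ramp3 makes up 54.1 to 70.2% of each bar, and the diamonds stay between 3.36 and 4.52 RPKM in all 8 libraries.

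How far reads of the RAMP genes could be shared was checked on the annotation. The longest stretch of identical bases shared by any annotated transcript of Ramp3 and of Ramp1, on either strand, was 10 bases, and it was 13 bases between Ramp3 and Ramp2. Of the 1380 exon bases of Ramp3, 101 (7.32%) overlap the processed pseudogene Gm11978 on the opposite strand, which had 1 count in E-Mac and 0 in Mac. No exon of Ramp1, Calcrl or Adm overlaps an exon of another gene in GENCODE M21.

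Cells that carry these receptors outside the macrophage lineage were followed by marker lists, as the summed CPM of each list. All 15 macrophage markers were detected in both groups. Their sum of 9634 to 13627 CPM in E-Mac and 13123 to 14185 CPM in Mac was ruled by the lysozyme gene Lyz2, which granulocytes also express, with 6147 CPM in E-Mac and 11204 CPM in Mac. Taken gene by gene in the edgeR fit, 9 of the 15 were higher in E-Mac and 2 lower, with a median log2 fold change of 1.01. Over all tested genes 29.5% were called higher and 28.8% lower, the shares to set beside the counts of each marker list. The scavenger receptor gene Msr1, named after its values were seen, had 1033 CPM in E-Mac and 98.8 CPM in Mac. The 15 neutrophil and granulocyte markers summed to 10204 to 16046 CPM in E-Mac and 31569 to 35192 CPM in Mac, with 11 genes called lower in E-Mac and 1 higher. In bulk RNA, fewer cells of a type and less RNA per cell cannot be told apart, and the part of granulocyte transcripts in the lower Ramp1 was not tested. Of 17 endothelial markers, 7 had 0 counts in E-Mac (Emcn, Cldn5, Robo4, Sox17, Sox18, Prox1 and Lyve1) and 1 in Mac (Sox17). In both groups 11 were under 1 CPM, and of 7 tested genes 3 were higher in E-Mac and 2 lower. The endothelial sum of 193 to 259.8 CPM in E-Mac and 87.8 to 99.0 CPM in Mac was held mostly by Pecam1, which leukocytes also carry, and Kdr. Pecam1 had 166.6 CPM in E-Mac and 82.0 CPM in Mac, and Kdr had 55.7 and 2.68 CPM. Osteoclast markers summed to 1143 to 2033 CPM in E-Mac and 1212 to 1232 CPM in Mac, mostly Mmp9 and Nfatc1, and of 9 tested genes 3 were higher in E-Mac and 3 lower.

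Collagen transcripts, like Ramp3, were higher in E-Mac and differed among the E-Mac libraries. The sum of all stromal markers was lower in E-Mac, but it was ruled by fibronectin (Fn1). The 20 stromal markers summed to 892 to 1074 CPM in E-Mac and 3207 to 3797 CPM in Mac. Of the 12 tested in the edgeR fit, 9 were higher in E-Mac and 1 lower, against 29.5% and 28.8% of all tested genes. Their median log2 fold change was 4.87. Fn1 had 614 to 990 CPM in E-Mac and 3190 to 3780 CPM in Mac. Without Fn1, a choice made after seeing the data, the other 19 markers summed to 76.5, 416, 57.9 and 452 CPM in E-Mac 1 to 4 and to 13.5 to 15.6 CPM in Mac. The 6 collagen genes of the list summed to 54.3, 326, 42.5 and 355 CPM in E-Mac 1 to 4 and to 4.91 to 7.66 CPM in Mac. E-Mac 2 and 4 had 7.04 times the collagen CPM of E-Mac 1 and 3, but 1.39 times the Ramp3 CPM (12.3 against 8.87). In E-Mac 1 and 3, the libraries with the least collagen, Ramp3 was at 9.04 and 8.69 CPM, against 0 in Mac. The mean of Ramp3 without E-Mac 2 and 4 was 8.87 CPM, and Ramp1 then had a log2 fold change of -1.93 (adjusted p = 2.15e-05 in edgeR, the highest under any alternative, the lowest being 4.68e-36). The level of Ramp3 in the MSC themselves was not analysed here, and the part of MSC transcripts in the Ramp3 level was not tested.

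**Figure D3:**
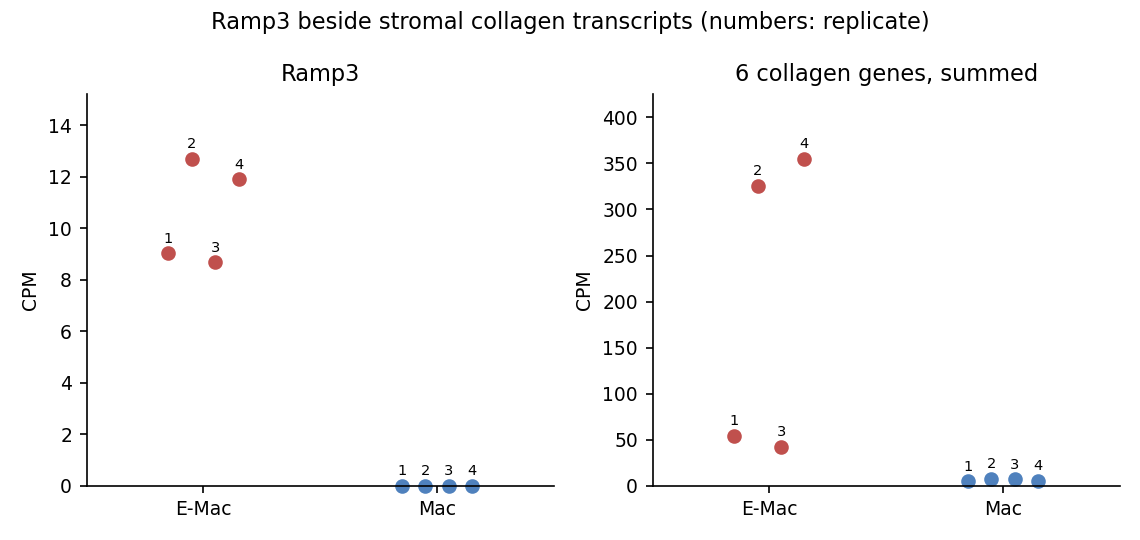
Ramp3 (left panel) and the sum of 6 stromal collagen genes (right panel) in CPM for each library, with E-Mac left of Mac and the replicate number above each point. The collagen sum in E-Mac 2 and 4 is 7.04 times that in E-Mac 1 and 3, and Ramp3 1.39 times.

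The peptides that these receptors bind and the enzymes that mature them formed a list of 12 genes. Calca and Calcb, which encode calcitonin and the CGRP peptides, and Iapp, which encodes amylin, had 0 counts in all 8 libraries. Adm2, which encodes intermedin, a ligand of the same receptors, had 0.857, 1.44, 1.01 and 2.16 CPM in E-Mac 1 to 4 and 0.746, 2.33, 1.47 and 1.05 CPM in Mac 1 to 4. The groups overlapped fully (log2 fold change 0.00 ± 0.43, edgeR adjusted p = 0.998). Of the 4 tested genes of the list 1 rose and 0 fell, against 29.5% and 28.8% of all tested genes. The one that rose was Furin, a convertase that cleaves peptide precursors. It had 379 ± 22.3 CPM in E-Mac and 230.4 ± 7.48 CPM in Mac (0.72 ± 0.07, adjusted p = 8.75e-07). Pam, the enzyme that amidates the C-terminus of adrenomedullin and CGRP, did not pass (-0.20 ± 0.10, adjusted p = 0.113), nor did Pcsk7, another convertase (0.04 ± 0.07, adjusted p = 0.662). Cpe, a carboxypeptidase that trims peptide precursors, was named after its values were seen and was removed by the filter, at 96 counts in E-Mac and 0 in Mac. It had 0.702, 2.82, 0 and 3.31 CPM in E-Mac 1 to 4, highest in the libraries with the most collagen. It was called higher with DESeq2 (adjusted p = 0.0126) and without E-Mac 3 or any 1 Mac library (0.000305 to 0.0323), which makes 2 higher genes in the list, but not with no filter (0.147). Pam was called lower with library size only and with upper-quartile factors (adjusted p = 0.0150 and 0.0240).

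Genes that carry, desensitise or clear these receptors and their ligands were 15 in the table and 13 tested, of which 3 rose and 4 fell. Over all tested genes 29.5% rose and 28.8% fell, so these counts do not set the list apart. The median log2 fold change was 0.02 against 0.00 over all tested genes. The receptor kinases Grk3 (-1.51 ± 0.09, edgeR adjusted p = 1.51e-08) and Grk5 (-1.32 ± 0.12, adjusted p = 5.72e-07) fell, and Grk6 fell with them (-0.68 ± 0.09, adjusted p = 3.70e-05). The 3 that rose, Grk6, and the genes Grk2, Arrb2, Ackr3 and Gnas below were named after their values were seen. Slc9a3r1 encodes the scaffold NHERF1, which in human cells holds RAMP3-containing receptors at the surface. It had 232, 266, 249.3 and 244 CPM in E-Mac 1 to 4, against 177, 176, 188 and 172 CPM in Mac 1 to 4, with no overlap (0.47 ± 0.07, adjusted p = 3.88e-05). Nsf, a fusion factor that in human cells sends RAMP3-containing receptors back to the surface, rose as well (0.38 ± 0.09, adjusted p = 0.00207). The third was Crcp, the receptor component protein that couples the CGRP receptor to its signal, with overlapping groups (0.26 ± 0.10, adjusted p = 0.0306), and its call was lost without E-Mac 3, Mac 1, Mac 3 or Mac 4 (adjusted p = 0.0834, 0.0596, 0.0813 and 0.0787). It was also lost with library size only (adjusted p = 0.289) and with upper-quartile factors (0.135). The abundant kinase Grk2 (0.05 ± 0.08, adjusted p = 0.597) and the arrestin gene Arrb2 (0.02 ± 0.07, adjusted p = 0.842) did not pass. The decoy receptor gene Ackr3, which takes up adrenomedullin, was removed by the filter on low counts, at 18 counts in E-Mac and 0 in Mac. It was called higher by edgeR with no filter (adjusted p = 0.00329) and by DESeq2 (0.00574), each of which gave the list 4 higher genes.

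Downstream of the receptor, 25 of 33 genes of the Gs and cyclic AMP machinery were tested. Of these 11 rose (29.5% of all tested genes did) and 9 fell (28.8% did), and the median log2 fold change was 0.10. The phosphodiesterases Pde7b (1.19 ± 0.10, edgeR adjusted p = 4.07e-07) and Pde8a (0.96 ± 0.09, adjusted p = 6.91e-07), which break down cyclic AMP, rose. Pde7b had 65.1 ± 9.67 CPM in E-Mac and 28.5 ± 0.89 CPM in Mac. Creb1, the transcription factor that protein kinase A activates, fell to 79.2 ± 3.45 CPM in E-Mac, against 127.5 ± 6.30 CPM in Mac (-0.69 ± 0.06, adjusted p = 1.07e-06). Gnas, which encodes the Gs alpha subunit itself, did not pass (-0.02 ± 0.12, adjusted p = 0.895). Without E-Mac 2 and 4 the list had 9 higher and 9 lower genes, but not the same ones. Named for this change, Crtc1 and Pde3b were no longer called higher, and Adcy3 and Pde4a no longer lower. Adcy9 and Crtc2 were then called lower. Adcy3 also lost its call with any single library left out except E-Mac 4 (edgeR adjusted p = 0.0510 to 0.145).

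Of 16 genes that cyclic AMP is known to induce, 15 were tested. Of these 5 rose (29.5% of all tested genes did) and 8 fell (28.8% did). The median log2 fold change was -0.69, against -0.00305 over all tested genes. The angiogenic factor Vegfa (2.44 ± 0.10, edgeR adjusted p = 3.53e-10) and the matrix protein Thbs1 (3.52 ± 0.20, adjusted p = 9.78e-08) rose, and the co-regulator Cited2 (-1.27 ± 0.08, adjusted p = 1.92e-08) fell. Crem, which encodes the inducible cyclic AMP repressor and was named after its values were seen, had 12.5, 13.5, 14.1 and 10.7 CPM in E-Mac 1 to 4 and 4.78, 6.08, 6.02 and 5.12 CPM in Mac 1 to 4. Its groups did not overlap (1.21 ± 0.14, adjusted p = 8.52e-06). Most called genes of the list went the other way. Also named after their values were seen, Fosb (-3.70 ± 0.44, adjusted p = 0.000279), Nr4a1 (-2.75 ± 0.19, 8.01e-07) and Sik1 (-2.29 ± 0.21, 1.15e-05) fell. Each varied within Mac and was highest in Mac 2, with no overlap between the groups. Fosb had 260.5, 793.9, 490 and 280.6 CPM in Mac 1 to 4. The genes of this list answer to many other signals, and they split in direction. Among the 15 other receptors known to bind a RAMP only Vipr1, a receptor for vasoactive intestinal peptide, was high enough to test, and it fell to 0.284 ± 0.0945 CPM in E-Mac, against 1.19 ± 0.290 CPM in Mac (-2.03 ± 0.42, adjusted p = 0.000952). The share of tested genes called was 58.3% over the whole table, and these lists are given beside it as counts only.

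**Figure D4:**
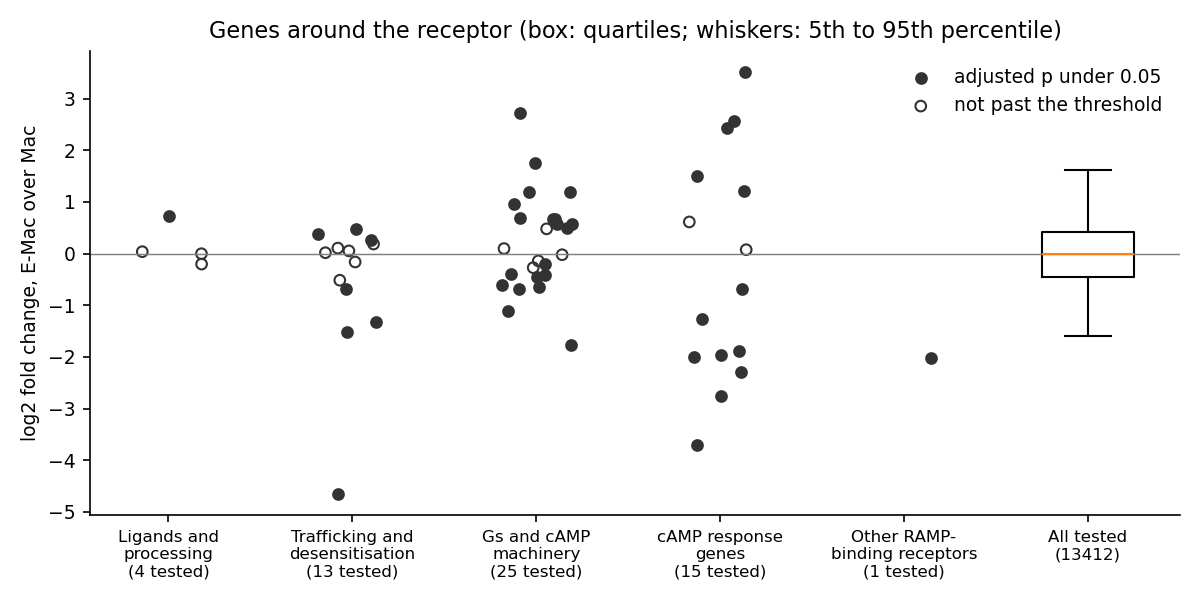
Log2 fold change, E-Mac over Mac, of each tested gene in the 5 lists around the receptor, filled where the edgeR adjusted p was under 0.05, with the spread of all 13412 tested genes as a box. Every list with more than 1 tested gene holds genes on both sides of 0, and the cyclic AMP response genes range from -3.70 for Fosb to 3.52 for Thbs1.

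The genes whose profile over the 8 libraries was most like that of Ramp3, by the Euclidean distance between log2(CPM + 0.5) values over all tested genes with a symbol that is not a numbered model, were Flrt3 (distance 0.749), Slc4a11 (1.23), Tmem171 (1.30), Timp1 (1.53) and Ccl22 (1.53). Flrt3 had 9.14 ± 1.19 CPM in E-Mac and 0 counts in Mac. Timp1, a metalloproteinase inhibitor, had 5.69, 14.9, 4.24 and 22.9 CPM in E-Mac 1 to 4, and was highest in the libraries with the most collagen. The nearest tested coding genes beside Ramp3 on chromosome 11 were Tbrg4, 32454 bases away (0.53 ± 0.09, adjusted p = 0.000167), and Tns3, 1754177 bases away (0.38 ± 0.10, adjusted p = 0.00486). Both were named for their position, and had 2986 and 8327 counts in E-Mac and 2233 and 6942 counts in Mac.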

How the data were processed

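The deposited file is a single matrix of raw counts made by the authors, with gene symbols in rows and the 8 libraries in columns. Per the submitters' processing notes, bcl2fastq, HISAT2, featureCounts, Subread and DESeq2 were used, without versions, with mm10 as the genome. The labels do not give the annotation, the strand setting or the multi-mapping rule.

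The table held 53673 names, of which 26 in the form of dates (0.133 to 0.160% of a library's counts) were left out. Totals were 11646025 to 15740846 counts per library, and 18485 to 19720 genes were detected. Within each group all pairs of libraries differed by more than sampling noise (lowest chi-square over its degrees of freedom, 4.85). Mac pairs had 4.85 to 10.5 on this measure. In E-Mac, libraries 1 and 3 (4.89) and libraries 2 and 4 (9.25) lay close, and all other pairs had 19.7 to 33.9. The tests and SDs treat the 4 E-Mac libraries as separate, and the labels do not say whether the close ones share an origin. The test was edgeR's (4.0.16, R 4.3.3). Low genes were removed by filterByExpr at a count of 10 and a total of 15, libraries were scaled by TMM, and E-Mac was set against Mac in a quasi-likelihood model with the robust option. P-values were adjusted by Benjamini-Hochberg over 13412 genes, and a gene was called at 0.05. The standard error is the log2 fold change divided by the square root of F. The fit was tested on simulated data. Members too low for the fit had exact permutation tests of CPM. Exon lengths and positions came from GENCODE M21 (99.2% of tested genes), promoter windows from RefSeq, which held 5 of the 6 members. Marker and pathway lists were counted, not tested. Named were all members, the 4 ligand genes, in each pathway list the 3 genes of lowest adjusted p, the leading markers, and the 5 genes nearest to Ramp3. Of the genes this rule picks, 1 is not reported here. The alternatives were other normalizations, filters, thresholds and tools (DESeq2 1.42.0, limma 3.58.1), the replicate block and left-out libraries. The members and lists were chosen with earlier results of these data known.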

Additional observations from a re-analysis of the deposited data

Results flagged for a closer look

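Ramp2 had 0.123 CPM in Mac 4, from 2 counts, and 0 in the other 3 Mac libraries, which set that library apart from its group. Vipr1 had 0.144 CPM in E-Mac 4, below the 0.312 to 0.344 CPM of the other 3 E-Mac libraries. Among 36 groups of libraries checked, chance alone sets a library apart in about 1 of 20 groups, and both genes rest on a few counts. That rate does not hold for Ramp2 in Mac, where 3 libraries at 0 make any count in the remaining library stand apart.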

How the results depend on the processing

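Of 317 values under the alternatives, 299 kept their direction and side of the threshold, or stayed within the spread or 1.5 times the count. Some of the 299 could not change. The Ramp3 level in E-Mac and the Adm difference stay the same whichever Mac library, at 0 counts, is left out. Ramp1 was called lower under every alternative run, at -2.17 to -1.89 on the log2 scale, which is also its range with 1 library left out. Calcrl ranged from -0.16 to -0.01 with 1 library left out, was -0.23 with library size only (adjusted p = 0.0952) and turned to 0.0087 without E-Mac 2 and 4. The Ramp2 difference ranged from -0.00484 to 0.0539 CPM and turned without E-Mac 2, where all rests on single counts. With 1 library left out, that of Adm ranged from 0.052 to 0.144 CPM and Ramp3 in E-Mac from 9.89 to 11.2 CPM, and Ramp3 was at 8.87 CPM without E-Mac 2 and 4. Tested against a fold of 1.5, a stricter question by construction, 1490 genes were higher and 1478 lower, the Gs list had 5 higher and 2 lower, and the trafficking list 0 higher. The ligand list had 2 higher genes with DESeq2 and 1 to 2 with 1 library left out, the second being Cpe, and 1 lower gene, Pam, with upper-quartile factors or library size only. The other RAMP-binding receptors had 1 higher gene, Gipr (13 counts in E-Mac and 0 in Mac), with no filter and with DESeq2, and 0 lower with at least 1 CPM in 4 libraries, where Vipr1 was not tested. With 1 library left out, 3708 to 4059 genes were higher and 3525 to 3927 lower. Library size only moved the median log2 fold change of all genes to -0.15. Same-numbered libraries did not deviate together (correlations of -0.127 to 0.0505), and differently numbered ones had -0.112 to 0.132. So few correlations cannot show whether the numbers pair libraries, and the labels do not say. With the replicate block Ramp1 was at -2.03 (adjusted p = 1.45e-06, edgeR), Calcrl at -0.09 (0.558), and 3768 genes were higher and 3690 lower. Depth limits Ramp2, Adm and Calcr, whose counts cannot show a difference. The level of Ramp2 is also uncertain through the exons it shares with Vps25.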

Other observations

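Other marker lists gave the following levels around the RAMP genes, as summed CPM and as genes called in the edgeR fit. No list as a whole was tested, and the genes named here were chosen after their values were seen. Over the whole table, 29.5% of tested genes were called higher in E-Mac and 28.8% lower. In several lists 1 gene carried the sum. Dendritic cell markers summed to 553 to 637 CPM in E-Mac and 237 to 259 CPM in Mac through Bst2, an interferon-induced gene, with 473 CPM in E-Mac and 77.8 CPM in Mac, while 3 genes were higher in E-Mac and 4 lower. Flt3 was among the low ones, with 7.53 CPM in E-Mac and 41.5 CPM in Mac. Monocyte markers summed to 4448 to 4775 CPM in E-Mac and 4612 to 4823 CPM in Mac, with 1 gene higher in E-Mac and 6 lower. Ly6c2 had 2559 CPM in E-Mac and 946 CPM in Mac, and Ccr2 had 638 CPM in E-Mac and 1242 CPM in Mac. Erythroid and megakaryocyte markers summed to 100.4 to 190.4 CPM in E-Mac and 86.1 to 105.6 CPM in Mac, with 1 gene higher in E-Mac and 5 lower of 6 tested. The platelet factor gene Pf4 had 126.7 CPM in E-Mac and 0.536 CPM in Mac, and the hemoglobin gene Hbb-bs had 0 counts in E-Mac and 26.6 CPM in Mac. T and NK cell markers summed to 4.33 to 6.31 CPM in E-Mac and 16.8 to 22.4 CPM in Mac, with Cd3e at 0 in all libraries. Smooth muscle and pericyte markers summed to 17.5 to 58.6 CPM in E-Mac and 15.1 to 17.1 CPM in Mac, with Des at 0 in all libraries and E-Mac 2 and 4 the highest. B cell markers summed to 21.7 to 34.7 CPM in E-Mac and 18.6 to 21.9 CPM in Mac. The part of these cell types in the RAMP levels was not tested.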
